A study of Mus musculus with 4 samples.

Results

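Matrix metalloproteinases (MMPs), the enzymes that cut the extracellular matrix, and the tissue inhibitors of metalloproteinases (TIMPs) were followed in single cells of mouse bone. The 10 genes Mmp2, Mmp3, Mmp8, Mmp9, Mmp13, Mmp14, Mmp19, Timp1, Timp2 and Timp3 were taken by symbol from the 31053 genes of the count matrices, 22489 of which had at least 1 unique molecular identifier (UMI, a tag that marks 1 captured transcript). Bone was compared between mice kept 28 days under hindlimb unloading (HLU), a tail suspension that takes the load off the hind legs, and Ctrl mice caged alike without suspension, to ask how the cell types of bone respond to the lack of load. All mice were wild-type, C57BL/6J by the methods, and each group had 2 libraries, 1 per mouse, made with the 10x Genomics 3′ kit from tibiae and femurs. The methods give the age as 8 weeks and the design text speaks of postnatal day 28, so the age is not settled here. The marrow was flushed out with PBS before digestion, yet many barcodes were blood cells in every library. Levels are given in CPM, the UMIs of a gene scaled to the same UMI total in each cell class and library, and values for the 4 libraries always list Ctrl replicates 1 and 2 before HLU replicates 1 and 2.

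MMPs are made as inactive proenzymes whose prodomain must be removed before they cut. Mmp8 and Mmp13 are collagenases that open the triple helix of fibrillar collagen, Mmp2 and Mmp9 are gelatinases that digest the unwound strands, and Mmp3 is stromelysin 1, which cuts proteoglycans and activates other MMPs. Mmp14 is anchored in the cell membrane and, together with Timp2, activates the Mmp2 proenzyme on the cell surface. Mmp19 is a secreted member of a separate branch of the family. TIMPs block the catalytic site of active MMPs, and Timp3 is the one that binds to the matrix itself and also inhibits ADAM and ADAMTS proteinases. Neutrophils store Mmp8 and Mmp9 in their granules, osteoclasts are rich in Mmp9, hypertrophic chondrocytes and osteoblasts are known for Mmp13, and fibroblasts and chondrocytes for Mmp3 and the TIMPs. Transcript counts do not measure proenzyme activation or enzyme activity.

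Of the 10 genes, 3 lie within 1 run of 10 Mmp genes on chromosome 9 (chr9:7272514-7699585, mm10, GENCODE M21), in the order Mmp13 (chr9:7272514-7283331), Mmp3 (chr9:7445822-7455975) and Mmp8 (chr9:7558456-7568485), all on the plus strand. The other genes are spread over the genome: Mmp2 (chr8:92827291-92853420), Mmp9 (chr2:164940780-164955850), Mmp14 (chr14:54431612-54445364), Mmp19 (chr10:128790910-128800824), Timp1 (chrX:20870166-20874735), Timp2 (chr11:118301069-118355740, minus strand) and Timp3 (chr10:86300372-86349506). Timp1 lies within Syn1 and Timp3 within Syn3, each on the strand opposite to its host gene, and Timp2 overlaps part of Cep295nl on the same strand. Reads where Timp2 and Cep295nl overlap may therefore be shared between them. The promoters of the 3 genes on chromosome 9 are shown because their transcripts, although from 1 run of genes, came from different cells, Mmp3 and Mmp13 from osteochondral cells and Mmp8 from neutrophils and monocytes. Each runs 5′ to 3′ on the plus strand, from 250 bases before to 50 after the RefSeq start (GRCm38.p6, in which 7 of the 10 genes were matched), with capitals marking motif matches.
Mmp3, chr9:7445572-7445871: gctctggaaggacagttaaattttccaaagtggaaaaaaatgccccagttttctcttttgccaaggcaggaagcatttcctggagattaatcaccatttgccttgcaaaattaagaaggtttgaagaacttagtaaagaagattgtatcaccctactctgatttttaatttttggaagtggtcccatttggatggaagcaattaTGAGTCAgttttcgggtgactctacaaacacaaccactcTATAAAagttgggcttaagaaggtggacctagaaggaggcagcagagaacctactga
Mmp13, chr9:7272264-7272563: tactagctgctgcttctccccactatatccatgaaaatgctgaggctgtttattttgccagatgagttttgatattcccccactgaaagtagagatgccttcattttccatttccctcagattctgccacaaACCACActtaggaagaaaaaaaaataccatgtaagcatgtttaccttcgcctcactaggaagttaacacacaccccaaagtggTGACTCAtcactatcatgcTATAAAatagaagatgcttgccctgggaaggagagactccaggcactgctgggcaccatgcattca
Mmp8, chr9:7558179-7558478: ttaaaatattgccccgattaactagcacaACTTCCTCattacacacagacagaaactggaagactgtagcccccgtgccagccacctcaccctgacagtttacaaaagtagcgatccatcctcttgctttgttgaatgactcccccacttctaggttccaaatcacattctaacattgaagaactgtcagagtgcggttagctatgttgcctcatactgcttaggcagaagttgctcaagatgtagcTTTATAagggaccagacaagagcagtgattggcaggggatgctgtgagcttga
The motifs searched on both strands were AP-1 (TGANTCA, in 7.81% of 32851 promoters of this length), the TATA box (TATAAA, 13.6%), RUNX (TGTGGT, 16.8%) and PU.1 (GAGGAAGT, 3.202%), of which none overlapped another in these windows. An AP-1 match was found in Mmp3 (TGAGTCA, positions -46 to -40 from the start) and in Mmp13 (TGACTCA, -35 to -29), and a RUNX match in Mmp13 (ACCACA, -118 to -113). The Mmp8 window held a PU.1 match (ACTTCCTC, -221 to -214) and, like both others, a TATA box match. These matches are sequence descriptions, and binding was not measured.

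After the filters, 32217 of 40003 barcodes were kept, namely 7340, 7635, 7757 and 9485 per library, with 45347595 to 87604282 UMIs per library and median UMIs of 6294, 5787, 3799 and 6147 per barcode. The 4 libraries shared 101 barcode sequences. Cells were grouped into 29 clusters, and class names below stand for clusters that resembled a type by its markers, while 5 clusters stayed unnamed. Osteochondral cells are here the chondrocyte, stromal and connective tissue clusters, since no cluster was named osteoblasts. They made up 45.1, 34.4, 5.72 and 2.52% of barcodes and 53.8, 45.5, 4.003 and 2.58% of UMIs, so that the Ctrl and HLU libraries did not overlap in their makeup. The chondrocyte and stromal lists were detected in those cells (15 of 15 chondrocyte and 9 of 9 stromal markers in every library). In the connective tissue cluster of HLU replicate 1 (27 barcodes), only 1 of 8 connective tissue markers was detected. HLU replicate 2 also stood apart from HLU replicate 1 for some members, as given beside Mmp14 and Timp2.

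The 10 genes divided over the cell classes in a few patterns. In the Ctrl and HLU libraries alike, most Mmp3, Mmp13, Timp1 and Timp3 UMIs came from osteochondral cells, which held 88.8, 87.3, 97.2 and 77.8% of the Mmp3 UMIs, 90.2, 86.4, 92.6 and 78.9% of Mmp13 and 88.4, 88.4, 95.3 and 71.2% of Timp1. Neutrophils held most of Mmp9, with 54.8, 43.7, 52.002 and 43.96% of its UMIs in immature and 26.5, 28.4, 30.2 and 34.3% in mature neutrophils. Mmp8 was shared between immature neutrophils (36.2, 35.9, 38.9 and 28.3%), mature neutrophils (25.2, 27.5, 28.3 and 29.03%) and monocytes (17.4, 16.2, 16.8 and 18.5%). Its division over these 3 classes was thus similar in every library, although the libraries differed widely in their share of osteochondral cells.

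**Figure D1:**
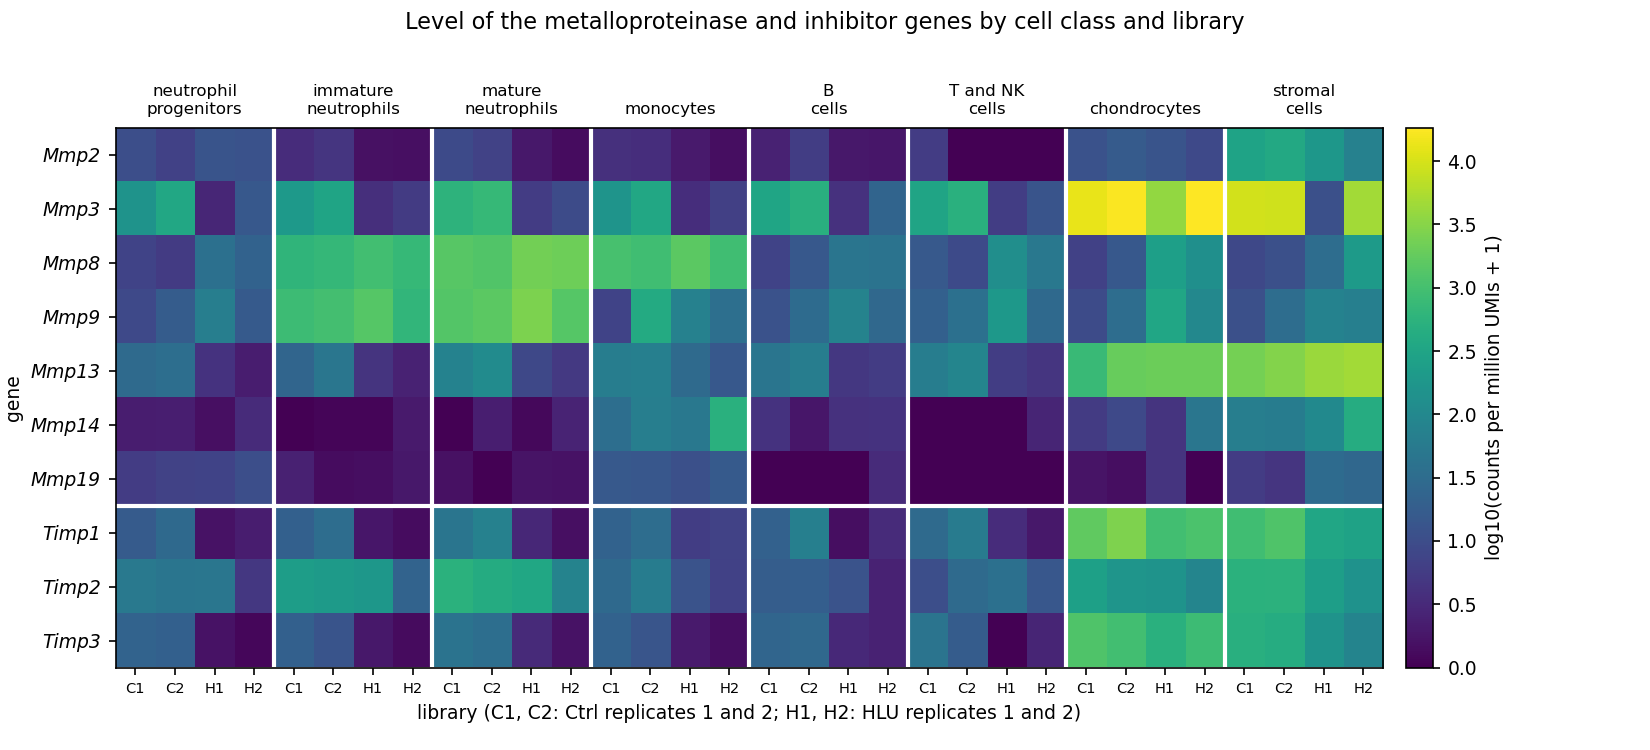
Level of each gene in 8 cell classes and each library, as log10(CPM + 1) by colour, with genes in rows and libraries in columns within each class. Mmp3, Mmp13, Timp1 and Timp3 were brightest in chondrocytes and stromal cells, except for Mmp3 in the stromal cells of HLU replicate 1, Mmp9 in immature and mature neutrophils, and Mmp8 in these and in monocytes.

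Mmp14, Mmp2 and Mmp19 divided over the classes in other shares in the HLU than in the Ctrl libraries. Stromal cells held 64.6 and 45.8% of Mmp14 UMIs in the Ctrl libraries, whereas monocytes held 59.6 and 62.4% in the HLU libraries. Osteochondral cells held 84.8, 86.2, 51.2 and 19.95% of Mmp2 UMIs, and in the HLU libraries neutrophil progenitors held 35.96 and 45.4%, less than the osteochondral cells in HLU replicate 1 and more in HLU replicate 2. Mmp19 was low throughout, with 2.63, 2.81, 3.44 and 6.02 CPM over all kept barcodes, and in the HLU libraries monocytes (25 and 33.8%) and progenitors (25 and 32.3%) were its largest sources. These shares follow the makeup of each library as well as the level in each cell.

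Summed over all kept barcodes, 6 of the 10 genes passed the test between HLU and Ctrl (edgeR quasi-likelihood test, adjusted p under 0.05), against 23.2% of all genes tested. Mmp8 rose and Mmp2, Mmp3, Mmp13, Timp1 and Timp3 fell, and the median log2 fold change was -2.48 over the 10 genes and 0.04 over all genes. Such a sum cannot tell fewer cells of a type from less RNA per cell, and each of the 5 genes that fell had most of its Ctrl UMIs in the osteochondral cells, which were few in the HLU libraries.

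Mmp3 stood at 6344, 7406, 104 and 409.9 CPM over all kept barcodes (log2 fold change -4.63, SE 0.80, edgeR adjusted p = 0.0176). Both HLU libraries lay below both Ctrl libraries, at 257 ± 216 against 6875 ± 751 (SD, n = 2). Timp1 stood at 781, 1139, 30.3 and 28.1 CPM (log2 fold change -4.96, SE 0.37, edgeR adjusted p = 0.00326), Timp3 at 577, 440.4, 19.8 and 21.3 CPM (log2 fold change -4.56, SE 0.34, edgeR adjusted p = 0.00326), and neither overlapped between groups. Mmp13 (779, 1139, 108 and 102 CPM, log2 fold change -3.11) and Mmp2 (90.2, 75.7, 4.48 and 4.98 CPM, -4.05) fell likewise, with edgeR adjusted p = 0.00527 and 0.00326. Mmp8, the neutrophil collagenase, stood at 189, 252, 795 and 655 CPM (log2 fold change 1.78, SE 0.30, edgeR adjusted p = 0.0165). It was higher in both HLU libraries than in either Ctrl library, but its call was lost without Ctrl replicate 1 (edgeR adjusted p = 0.264) or Ctrl replicate 2 (0.131).

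The remaining 4 genes did not pass over all kept barcodes. Mmp9 stood at 168, 298, 892 and 366 CPM (log2 fold change 1.48, SE 0.51, edgeR adjusted p = 0.0965), where no HLU library reached down to a Ctrl library, and it passed with DESeq2 (adjusted p = 0.0154). Mmp14 stood at 18.6, 18.8, 7.21 and 109 CPM, 1 HLU library being below and the other above the Ctrl pair. Its log2 fold change turned from 2.77 without HLU replicate 1 to -1.37 without HLU replicate 2, and therefore hangs on which HLU mouse is read. Timp2 stood at 331, 266, 141 and 23.2 CPM (log2 fold change -1.84, SE 0.79, edgeR adjusted p = 0.155). It was lower in both HLU libraries, by far the most in HLU replicate 2, and passed with DESeq2 (adjusted p = 0.0318). Its log2 fold change was -3.47 without HLU replicate 1 and -1.08 without HLU replicate 2. Mmp19 had a log2 fold change of 1.36 without HLU replicate 1. With either HLU library left out, the spread between HLU mice is not measured, so only effect sizes are given for these fits.

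**Figure D2:**
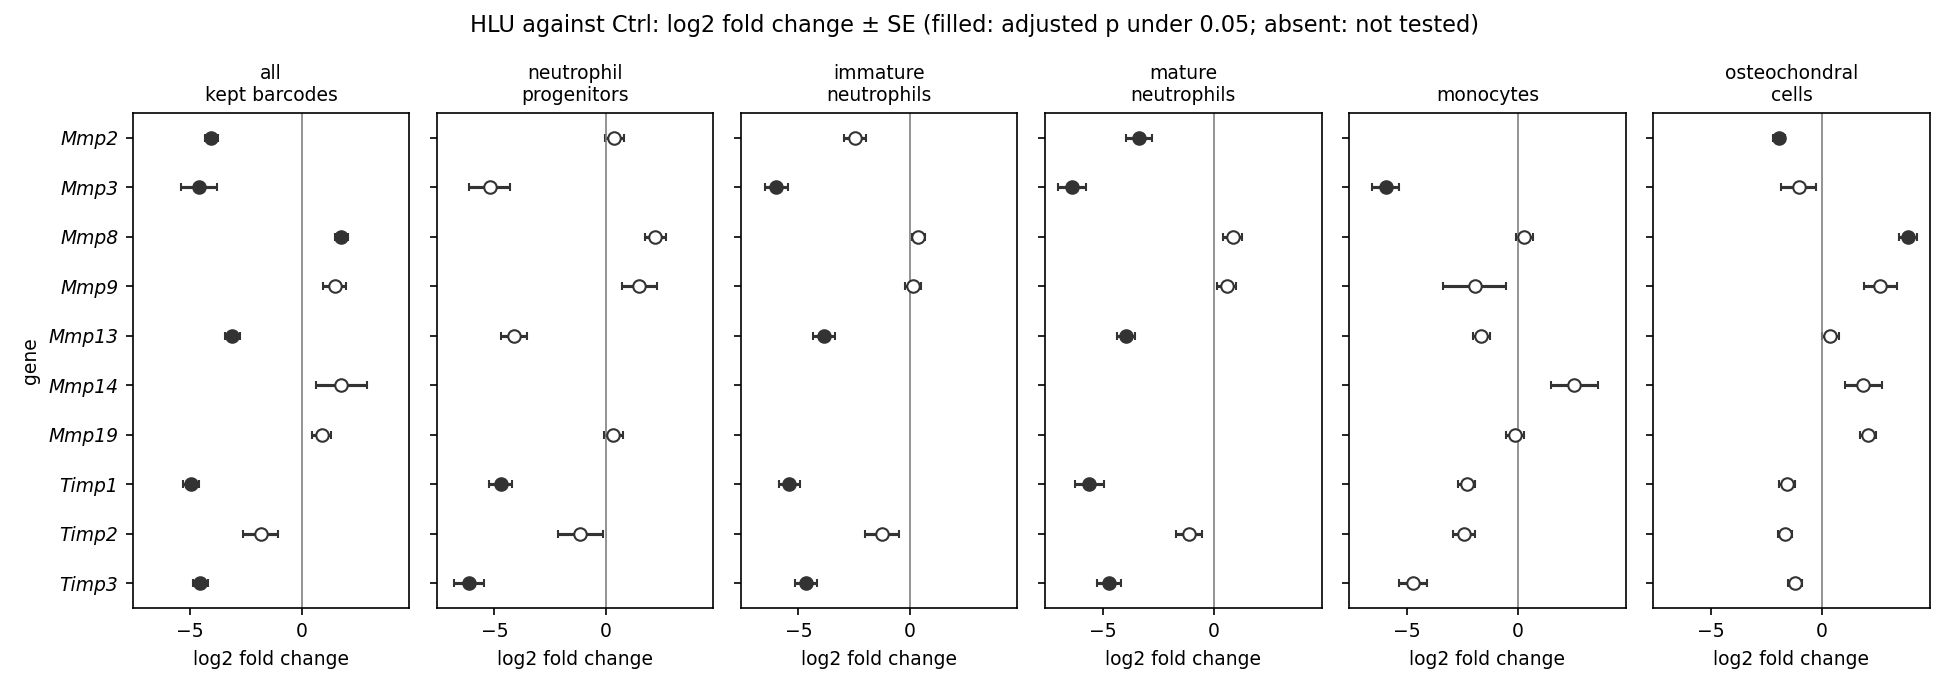
Difference between HLU and Ctrl for each gene in all kept barcodes and 5 cell classes, as log2 fold change with its SE from edgeR (2 libraries per group). Filled points passed at an adjusted p under 0.05, open points did not, and genes without a point were too low to be tested.

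Across the neutrophil stages, Mmp8, Mmp9 and Timp2 were each higher in CPM in immature neutrophils than in progenitors, in every library. Their CPM was higher again in mature neutrophils. Per barcode, the step from progenitors was also upward, but Mmp9 gave 5.85, 7.16, 10.01 and 6.08 UMIs in immature and 2.65, 3.88, 6.34 and 5.62 in mature neutrophils. Mmp8 and Timp2 also gave fewer UMIs per barcode in mature neutrophils, except in HLU replicate 2, where both gave more. Median UMIs per barcode were lower in mature neutrophils, as given below. The stages were cut by clustering the same counts, so these tests describe the cut, and both comparisons use the same immature sums. Of 9 members tested between immature neutrophils and progenitors, 5 differed (3 higher, 2 lower), against 65.6% of all genes, and of 8 tested between mature and immature neutrophils, 8 were higher, against 63.8% of all genes in either direction. With most genes called, the counts say little about the members, so their levels are given. Without the library as a block, Mmp8 and Mmp9 alone passed between mature and immature neutrophils.

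Mmp8 stood at 6.28, 4.56, 36.8 and 21.2 CPM in neutrophil progenitors, 626, 686, 936 and 725 CPM in immature and 1449, 1283, 2239.9 and 2133 CPM in mature neutrophils. The steps did not overlap in any library, with log2 fold changes of 5.91 (SE 0.37, edgeR adjusted p = 3.21e-06) and then 1.39 (SE 0.16, 1.16e-04). Within a class, clusters spread further. The immature cluster led by Retnlg stood at 2189, 2194, 2889.8 and 2059.9 CPM for Mmp8, and the mature cluster led by Ccrl2 at 1025, 766, 1365 and 1666 CPM, while the mature cluster led by Stfa2 stood at 1895, 1799, 2736 and 2556 CPM. Hence the highest of these 3 clusters in the Ctrl libraries was an immature one, whereas the immature cluster led by Ltf, the lactoferrin gene, was low in Mmp8 (219.9, 299, 436 and 366 CPM). Retnlg is itself a mature neutrophil marker, and the cluster it leads had 1 immature and 1 mature marker among its top 10 genes. Without that cluster, a choice made after the values were seen, the step of Mmp8 from immature to mature neutrophils was 3.20 on the log2 scale (edgeR adjusted p = 4.21e-06) and that from progenitors to immature neutrophils 4.07 (6.57e-06).

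Mmp9 stood at 7.85, 16.7, 65.2 and 14.9 CPM in progenitors, 842, 986, 1403 and 629.6 CPM in immature and 1354, 1562, 2683 and 1409 CPM in mature neutrophils (log2 fold changes 5.74 and 1.01, edgeR adjusted p = 2.59e-06 and 5.57e-04). HLU replicate 1 was highest at every stage, and the other libraries lay close together in mature neutrophils. Mmp9 stood at 2502, 2692, 3475 and 1612 CPM in the immature cluster led by Retnlg, above the mature cluster led by Stfa2 (1927, 2314, 3257 and 1746 CPM) in 3 libraries and below it in HLU replicate 2, and at 806, 839, 1702 and 1025 CPM in the mature cluster led by Ccrl2. Without the Retnlg cluster the step from immature to mature neutrophils was 2.20 on the log2 scale (edgeR adjusted p = 2.12e-05). The cluster of dividing immature neutrophils led by Hist1h1b, Cenpf and Top2a stood at 150.3, 143, 239 and 126 CPM for Mmp9. Another, led by Ccnb2, Cdkn3 and Hmmr, stood at 416, 404 and 203 CPM in Ctrl replicate 2, HLU replicate 1 and HLU replicate 2. Mmp9 thus spanned a wide range within the immature class alone.

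Timp2 was the inhibitor that neutrophils held at the highest level. It stood at 52.6, 44.8, 46.2 and 3.86 CPM in progenitors, 238, 213, 178 and 22.01 CPM in immature and 522, 416, 352 and 81.1 CPM in mature neutrophils (log2 fold changes 2.44 and 1.38, edgeR adjusted p = 5.17e-06 and 3.59e-04). The Ctrl libraries and HLU replicate 1 ran close together, and HLU replicate 2 lay far below them at each stage. In immature neutrophils the log2 ratio of HLU replicate 2 to HLU replicate 1 was -2.96, a distance reached by 0.468% of the genes tested. In progenitors it was -3.28, reached by 0.4098%, and in mature neutrophils -2.10, reached by 5.98%. The distance was more common still in monocytes (-0.91, reached by 21.8%) and osteochondral cells (-0.59, reached by 42.7%). The Ctrl libraries differed by -0.16 in immature neutrophils. Among the named neutrophil clusters, Timp2 was highest in the Ctrl libraries in those led by Stfa2 (524, 416, 365 and 90.3 CPM), Ccrl2 (526, 413, 338 and 71.1 CPM) and Retnlg (485, 408, 321 and 57.8 CPM), and HLU replicate 2 was the lowest library in each.

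**Figure D3:**
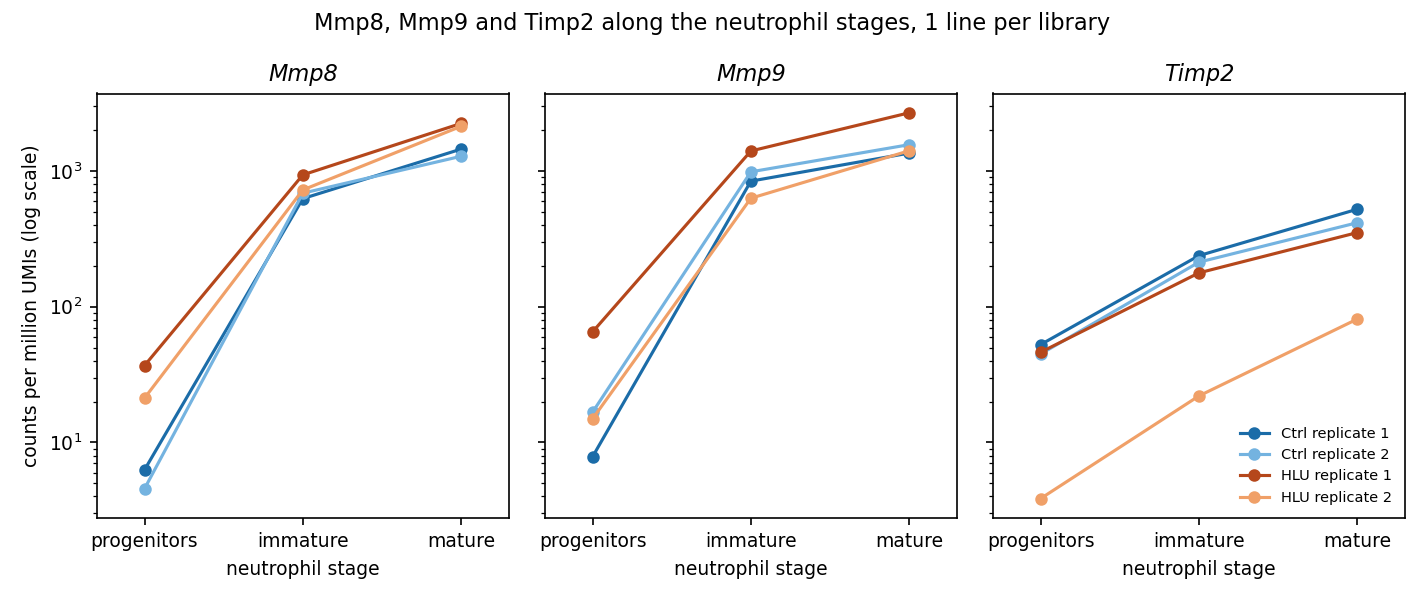
CPM of Mmp8, Mmp9 and Timp2 on a log axis in neutrophil progenitors, immature and mature neutrophils, with 1 line per library. Each gene was higher at each later stage in all 4 libraries, and HLU replicate 2 ran below the other libraries for Timp2.

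Mmp2 and Mmp19 ran the other way. Mmp2 stood at 9.42, 5.57, 11.6 and 11.1 CPM in progenitors, from 24, 22, 73 and 198 UMIs, and at 2.44, 3.48, 0.534 and 0.491 CPM in immature neutrophils (log2 fold change -2.61, edgeR adjusted p = 0.00266). In the Ctrl libraries both stages were low, and the step was widest in the HLU libraries. Mmp19 stood at 4.71, 5.83, 6.19 and 9.51 CPM in progenitors and 1.46, 0.386, 0.467 and 0.848 CPM in immature neutrophils (log2 fold change -2.90, edgeR adjusted p = 1.19e-04), lower in every library. Mmp3, Mmp13, Timp1 and Timp3 did not differ past the threshold between these stages (edgeR adjusted p = 0.843, 0.129, 0.5496 and 0.968). All of them were higher in CPM in mature than in immature neutrophils (log2 fold changes 1.32, 1.5, 1.25 and 1.38), as was Mmp2 (0.99, edgeR adjusted p = 0.04295), whose call was lost with DESeq2 (0.121). Mature neutrophils held fewer UMIs per barcode (medians 1761, 2316, 2106 and 3646) than immature ones (5587, 5847, 5866 and 7858). Per barcode, Mmp3 was lower in mature than in immature neutrophils in every library, by the values given next.

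Free RNA from broken cells gives UMIs in droplets whose cell does not use a gene, and it was read here from B cells and from T and NK cells, which are not known for these genes. Mmp3 gave 1.401, 2.22, 0.0195 and 0.0444 UMIs per barcode in immature neutrophils, 1.14, 1.82, 0.0114 and 0.0337 in mature neutrophils, 1.42, 2.07, 0.0124 and 0.0664 in B cells and 1.18, 1.95, 0.0215 and 0.0335 in T and NK cells. Within each library these 4 classes lay close together, whereas osteochondral cells held 95.8, 145, 10.3 and 117 UMIs per barcode. No expression of Mmp3 by neutrophils was therefore read from these levels.

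Mmp13, Timp1 and Timp3 in neutrophils were also near the lymphocytes in the Ctrl libraries, whereas in the HLU libraries Timp1 and Timp3 spread more widely. That spread rests on few UMIs, the B cells of HLU replicates 1 and 2 holding 32 and 7 UMIs of the Timp genes together. Mmp13 gave 0.148, 0.282, 0.0176 and 0.0163 UMIs per barcode in mature neutrophils and 0.193, 0.273, 0.01599 and 0.0137 in B cells, and Timp3 gave 0.0804, 0.0853, 0.00519 and 0.00255 and 0.103, 0.115, 0.00888 and 0.00458. Timp1 gave 0.0868, 0.187, 0.00467 and 0.00204 in mature neutrophils and 0.0897, 0.294, 0.00178 and 0.00686 in B cells. In the Ctrl libraries Mmp13 stood at 12.5 and 15.2 UMIs per 100 Mmp3 UMIs in osteochondral cells, 11.9 and 15.5 in immature neutrophils, 13.05 and 15.5 in mature neutrophils and 13.6 and 13.2 in B cells. The ratio was not the same in every class, at 5.94 and 10.7 in chondrocytes, 25.97 and 32.2 in stromal cells and 38.5 and 18.6 in monocytes. Timp2 differed from them. It gave 1.65, 1.55, 1.27 and 0.212 UMIs per barcode in immature neutrophils against 0.0759, 0.0769, 0.0462 and 0.00458 in B cells, and 118 and 69.9 UMIs per 100 Mmp3 UMIs in immature neutrophils against 3.88 and 2.202 in osteochondral cells of the Ctrl libraries.

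**Figure D4:**
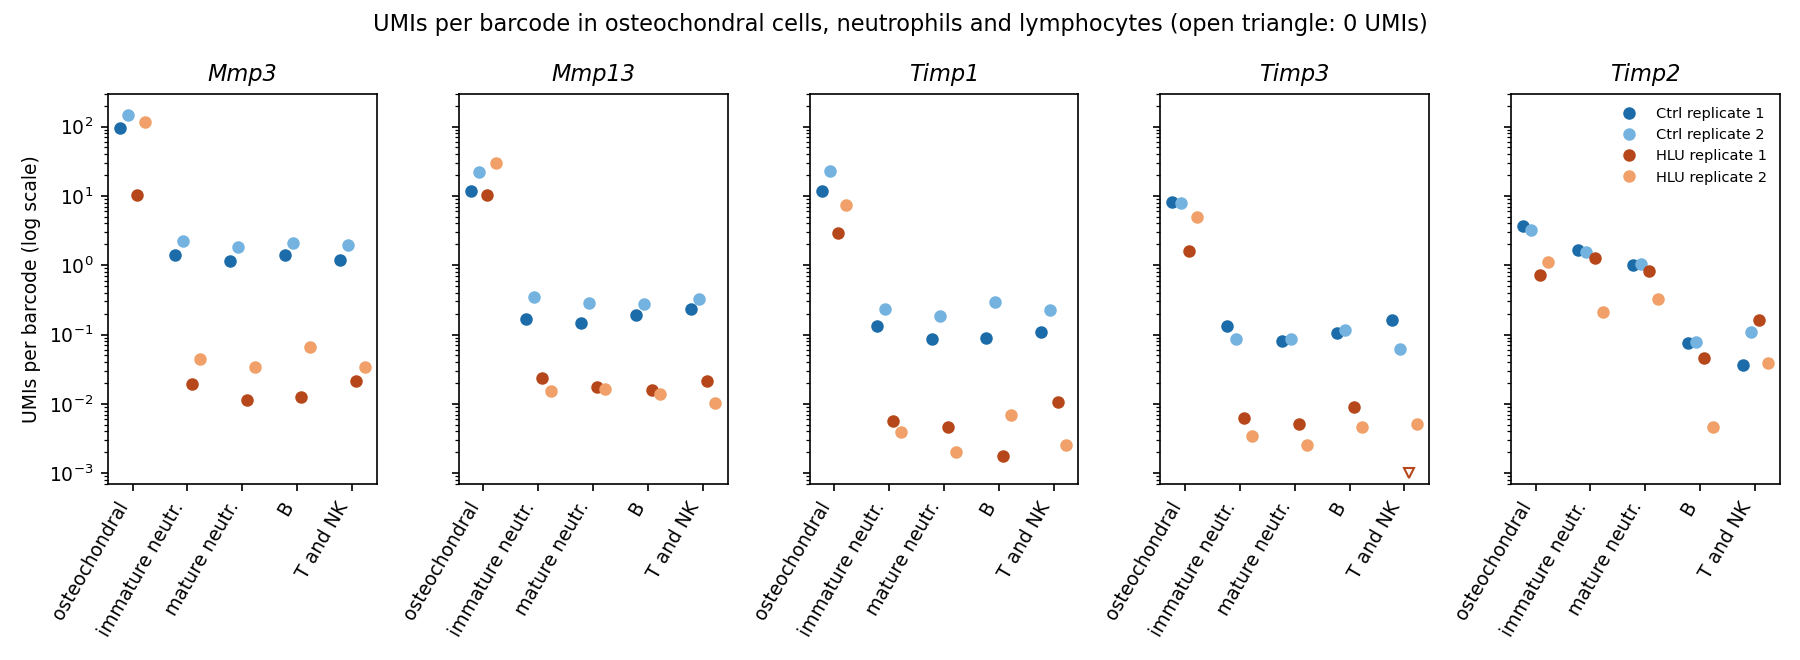
Mean UMIs per barcode on a log axis for 5 genes in osteochondral cells, immature and mature neutrophils, B cells, and T and NK cells, with 1 point per library and an open triangle for 0 UMIs. For Mmp3, Mmp13, Timp1 and Timp3 the neutrophils lay far below the osteochondral cells of the same library and, in the Ctrl libraries, near the lymphocytes, and for Timp2 they lay above the B cells.

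HLU and Ctrl were then compared within each neutrophil stage. In progenitors 2 of 9 members tested passed, Timp1 (15.7, 27.6, 0.635 and 1.17 CPM) and Timp3 (21.6, 18.995, 0.635 and 0.168 CPM), both lower in HLU, against 0.18% of all genes, and Timp1 did not pass at a lower clustering resolution (edgeR adjusted p = 0.05601). In immature neutrophils 4 of 8 passed (Mmp3, Mmp13, Timp1 and Timp3, all lower), against 1.81%, and in mature neutrophils 5 of 8 (the same 4 genes and Mmp2, all lower), against 2.61%. The median log2 fold change of the members tested was -1.14, -3.16 and -3.65 at the 3 stages, and that of all genes 0.06, 0.00 and 0.03. The 15 chondrocyte markers moved with these calls, at a summed 620.0, 753, 16.3 and 35.3 CPM in progenitors, 562, 741, 12.5 and 8.17 CPM in immature and 1712, 1768, 18.7 and 10.6 CPM in mature neutrophils. In the Ctrl libraries 15 of 15 of these markers were detected in mature neutrophils, and in the HLU libraries 11 and 13, with Col9a1 and Matn3 at 0 in both. B cells held a summed 992, 1285, 13.4 and 19.1 CPM of the same markers.

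Mmp3 in mature neutrophils stood at 580.3, 732, 4.83 and 8.45 CPM (log2 fold change -6.38, SE 0.63, edgeR adjusted p = 0.0155) and Timp1 at 44.4, 75.2, 1.98 and 0.512 CPM (log2 fold change -5.58, SE 0.63, edgeR adjusted p = 0.0168). Mmp13 stood at 75.7, 114, 7.47 and 4.098 CPM (log2 fold change -3.95) and Timp3 at 41.1, 34.3, 2.196 and 0.6403 CPM (-4.71). The groups did not overlap for any of these 4 genes, nor did they in B cells, where Mmp3 stood at 325, 484, 3.02 and 23.1 CPM and Mmp13 at 44.2, 63.7, 3.89 and 4.78 CPM. The call of Mmp2 in mature neutrophils (8.11, 5.98, 0.878 and 0.384 CPM, edgeR adjusted p = 0.0463) was lost without Ctrl replicate 1 (0.543), without Ctrl replicate 2 (0.4004) and with DESeq2 (0.0653).

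Mmp8, Mmp9 and Timp2, which stood above the lymphocytes in UMIs per barcode in immature and mature neutrophils, gave no call between HLU and Ctrl within a stage. Mmp8 in mature neutrophils stood at 2186 ± 75.5 CPM in HLU and 1366 ± 117 CPM in Ctrl (SD, n = 2), both HLU libraries being higher (log2 fold change 0.84, SE 0.42, edgeR adjusted p = 0.494). Without HLU replicate 1 its log2 fold change was 1.05. The share of mature neutrophils with an Mmp8 UMI was 57.5, 56.7, 73.6 and 89.2%, and 47.7, 44.3, 63.5 and 72.5% after each barcode was thinned to 1000 UMIs. B cells, at median depths of 3372, 3422, 3429 and 2442 UMIs, held 2.76, 5.59, 9.77 and 4.58% unthinned and 1.38, 2.797, 3.197 and 2.97% thinned, so the neutrophil shares stood far above background, and both HLU libraries above both Ctrl libraries at equal depth.

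Mmp9 in mature neutrophils (log2 fold change 0.57, SE 0.41, edgeR adjusted p = 0.6002) was high in HLU replicate 1 only, HLU replicate 2 lying within the Ctrl range. Without HLU replicate 2 its log2 fold change was 0.80. In immature neutrophils Mmp8 (0.38, edgeR adjusted p = 0.711) and Mmp9 (0.15, 0.913) lay near no change. In progenitors Mmp8 was higher in both HLU libraries (log2 fold change 2.23, SE 0.48, edgeR adjusted p = 0.272) without passing. Per barcode it gave 0.0717, 0.0632, 0.423 and 0.473 UMIs there. B cells gave 0.0276, 0.0594, 0.185 and 0.117 and T and NK cells 0.0545, 0.0308, 0.559 and 0.144, also higher in both HLU libraries. Mmp9 gave 0.0897, 0.232, 0.749 and 0.333 in progenitors and 0.0727, 0.138, 0.839 and 0.0799 in T and NK cells. The part of free RNA in these progenitor levels was not tested. Timp2 did not pass in progenitors, immature or mature neutrophils (-1.14, -1.25 and -1.12, edgeR adjusted p = 0.807, 0.687 and 0.503). Without HLU replicate 1 its log2 fold change in mature neutrophils was -2.12.

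Monocytes formed 1 cluster of 171, 249, 325 and 997 barcodes, led by Serpinb2, U90926 and Arg1, in which 12 of 12 monocyte markers were detected in every library. A cluster of 722 barcodes, doublets included, with Marco and Ms4a6c among its top 10 genes was named dendritic cells. At resolution 2, a cluster of 792 barcodes with Marco, Ms4a6c, Ccr2 and Cx3cr1 among its top 10 genes was named monocytes. The monocyte values in this report are therefore those of the Serpinb2 cluster and may leave out other monocytes. Of 9 members tested, 1 passed between HLU and Ctrl (Mmp3, lower), against 0.147% of all genes. Mmp3 stood at 163, 360.3, 2.56 and 5.503 CPM (log2 fold change -5.93, SE 0.61, edgeR adjusted p = 0.0492), again beside a chondrocyte marker sum of 525, 779.9, 15.1 and 5.84 CPM. Its call was lost without Ctrl replicate 2 (edgeR adjusted p = 0.0974), with doublets kept (0.747, log2 fold change -3.81) and at a lower clustering resolution (0.0795). The median log2 fold change was -1.94 over the members tested and 0.01 over all genes.

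Mmp8 was the most constant of the abundant members in monocytes, at 1054, 894, 1555 and 898 CPM (log2 fold change 0.29, SE 0.38, edgeR adjusted p = 0.897), and the groups overlapped. Monocytes also held a summed 4476, 4158, 4117 and 8239 CPM of the 13 mature neutrophil markers, against 26339, 28747, 37224 and 21179 CPM in mature neutrophils, and the part of these transcripts in the Mmp8 level was not tested. In every library the ratio of mature neutrophils to monocytes was smaller for Mmp8 than for the summed markers.

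Mmp14, the membrane-anchored activator of Mmp2, stood at 33.1, 64.8, 50.01 and 506 CPM in monocytes (log2 fold change 2.53, SE 1.03, edgeR adjusted p = 0.877). HLU replicate 2 was far above the other 3 libraries, while HLU replicate 1 lay between the Ctrl libraries. After thinning to 1000 UMIs, 2.92, 7.63, 4 and 41.7% of monocytes held an Mmp14 UMI, which kept this order. The log2 ratio of HLU replicate 2 to HLU replicate 1 was 3.31, reached by 0.684% of genes. HLU replicate 2 was also the highest library for Mmp14 in osteochondral cells (26.8, 26.01, 32.5 and 204 CPM).

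Mmp9 in monocytes stood at 6.28, 411, 74.4 and 34.6 CPM, with Ctrl replicate 2 far above the rest (log2 fold change -1.94, SE 1.41, edgeR adjusted p = 0.877). Barcodes that held 5 or more of 9 osteoclast markers numbered 1, 8, 4 and 2 per library, over all classes, and stood at 109, 8735, 2279 and 1963 CPM for Mmp9. Of them 0, 4, 3 and 1 were among the monocytes, and 3 of the 8 in Ctrl replicate 2 were called doublets. The barcode of Ctrl replicate 1 held Mmp3 at 53922.5 CPM, against 162 CPM in those of Ctrl replicate 2, so its likeness to an osteoclast is weak. The 8 such barcodes of Ctrl replicate 2 held 6.49% of its Mmp9 UMIs. Without the barcodes holding 4 or more of these markers, a choice made after the values were seen, monocytes stood at 6.28, 37.1, 47.6 and 26.1 CPM for Mmp9, and HLU replicate 1 was highest. The barcodes with 5 or more markers stood above the mature neutrophils of their library for Mmp9 in Ctrl replicate 2 and HLU replicate 2 and below them in the other 2 libraries, and were too few to compare between groups.

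Mmp13 stood above the B cells in the monocytes of every library, with 0.643, 0.723, 0.348 and 0.165 UMIs per barcode against 0.193, 0.273, 0.01599 and 0.0137 in B cells, whose median depth was lower (3372, 3422, 3429 and 2442 against 8232, 9167, 10667 and 10791 UMIs). Its level was 62.8, 67.1, 28.98 and 13.97 CPM, lower in both HLU libraries (log2 fold change -1.66, edgeR adjusted p = 0.394), without passing. Mmp19 stood at 14.3, 13.4, 10.002 and 15.1 CPM in monocytes (log2 fold change -0.14, edgeR adjusted p = 0.949), and the groups overlapped. Timp1, Timp2 and Timp3 were lower in both HLU libraries (-2.30, -2.43 and -4.70, edgeR adjusted p = 0.147, 0.2897 and 0.107).

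Osteochondral cells numbered 3310, 2626, 444 and 239 barcodes, with median UMIs of 7958, 9731, 1452 and 7088. Of the 10 members, 2 passed between HLU and Ctrl (Mmp8 higher, Mmp2 lower), against 2.9% of all genes, and the median log2 fold change was -0.34 against -0.01 over all genes. In HLU replicate 1, 330 of the 444 barcodes belonged to 1 cluster of low UMI totals, named chondrocytes from its markers over all libraries together. In it S100a8 and S100a9, the calprotectin genes of neutrophils, took 3.69, 5.69, 13.4 and 6.88% of UMIs. Its 15 chondrocyte markers summed to 22229, 18490, 681 and 1533 CPM, with 15, 15, 13 and 7 of them detected. The name is therefore weak for its barcodes in the HLU libraries. Without this cluster, a choice made after the values were seen, neither call held (edgeR adjusted p = 0.0652 for Mmp8 and 0.0866 for Mmp2).

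Mmp8 stood at 6.502, 12.7, 194 and 162 CPM in osteochondral cells (log2 fold change 3.86, SE 0.41, edgeR adjusted p = 0.0326) and Mmp9 at 9.803, 32.9, 252 and 87.6 CPM (log2 fold change 2.62, SE 0.75, edgeR adjusted p = 0.125). The groups did not overlap for either gene. The 13 mature neutrophil markers, all detected in each library, moved with them at a summed 171, 389.7, 2739 and 1601 CPM, and the 9 immature neutrophil markers at 3326, 5924, 11793 and 7025 CPM. Their part in the Mmp8 call was not tested. The Mmp8 call was also lost without Ctrl replicate 1 (edgeR adjusted p = 0.0642).

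Mmp2, the gelatinase of mesenchymal cells, stood at 142, 143, 57.3 and 38.5 CPM (log2 fold change -1.93, SE 0.27, edgeR adjusted p = 0.0383), lower in both HLU libraries. Its call was lost without Ctrl replicate 1 (0.138) or Ctrl replicate 2 (0.109). Within stromal cells, Mmp2 stood at 292, 372, 179.9 and 73.9 CPM and in chondrocytes at 10.9, 15.7, 11.6 and 7.796 CPM. The connective tissue cluster led by Myoc and Apod held Mmp2 at 318 and 386 CPM in the Ctrl libraries. In the HLU libraries few of these cells were left to compare, stromal cells numbering 899, 664, 43 and 64 barcodes. The stromal clusters also differed in share between libraries, as given beside Mmp19 below, and their part in these levels was not tested. Timp2 (406, 313, 176 and 117 CPM), Timp1 (1282, 2209.8, 722 and 776 CPM) and Timp3 (903, 778, 397 and 522 CPM) were lower in both HLU libraries as well. None of these inhibitors passed (log2 fold changes -1.65, -1.57 and -1.21, edgeR adjusted p = 0.0597, 0.08702 and 0.0953).

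Mmp3 in osteochondral cells stood at 10463, 14201, 2519 and 12356 CPM (log2 fold change -1.05, SE 0.78, edgeR adjusted p = 0.474), HLU replicate 1 being low and HLU replicate 2 within the Ctrl range. Most of these barcodes in HLU replicate 1 belonged to the cluster of low UMI totals, where Mmp3 stood at 207 CPM in that library. Mmp13 stood at 1305, 2162, 2509.6 and 3129 CPM, higher in both HLU libraries than in either Ctrl library (log2 fold change 0.36, SE 0.38, edgeR adjusted p = 0.613), without passing. The osteochondral clusters differed in share between libraries, and their part in this level was not tested. The fitted differences of the pair thus had opposite signs in osteochondral cells, neither past the test, while over all kept barcodes both genes fell. Mmp14 (1.86, edgeR adjusted p = 0.255) and Mmp19 (2.31, 1.72, 11.02 and 10.6 CPM, log2 fold change 2.07, edgeR adjusted p = 0.05599) were higher in both HLU libraries. In stromal cells Mmp19 stood at 4.79, 3.56, 29.99 and 26.1 CPM. The stromal cluster led by Ptx3 and Cxcl5 made up 236, 213, 40 and 35 of the 899, 664, 43 and 64 stromal barcodes. In the Ctrl libraries it held Mmp19 at 13.2 and 9.396 CPM, against 0.712 and 0.193 CPM in the stromal cluster led by Npy. The part of this makeup in the stromal level was not tested.

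The osteochondral clusters differed in their ratio of Mmp3 to Mmp13, and the clusters named here were singled out after their values were seen, so they are described without a test. The chondrocyte cluster led by Col10a1, Smoc2 and Acan (1181, 916, 26 and 60 barcodes) held Mmp3 at 15339, 22704, 9392 and 30901 CPM and Mmp13 at 267, 678, 4822 and 96.6 CPM. Mmp3 was high there in every library, and Mmp13 was high in HLU replicate 1 alone, from 26 barcodes. Timp1 (1745, 3424, 1729 and 1576 CPM) and Timp3 (1443, 1205, 991 and 859 CPM) were above the osteochondral class as a whole in every library. The makeup of this cluster differed between libraries. Its 15 chondrocyte markers summed to 52257.5, 72549, 13965 and 37182.5 CPM, and S100a8 and S100a9 took 0.0909, 0.233, 3.27 and 2.67% of its UMIs. The part of this makeup in the levels was not tested. The chondrocyte cluster led by Col9a1, present with at least 20 barcodes in 3 libraries, held both enzymes, with Mmp3 at 7253, 8865 and 7884 CPM and Mmp13 at 2336, 3638 and 5948 CPM in Ctrl replicate 1, Ctrl replicate 2 and HLU replicate 2.

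The stromal cluster led by Ptx3, Cxcl5 and Fgf7 (236, 213, 40 and 35 barcodes) showed the sharpest contrast between these neighbouring genes. Mmp13 there stood at 6824, 7625, 3821 and 7274 CPM, from 23304, 22722, 1785 and 4254 UMIs, whereas Mmp3 stood at 14247, 12510.1, 10.7 and 178 CPM, from 48656, 37279, 5 and 104 UMIs. Mmp13 thus overlapped between the groups, and Mmp3 was more than an order of magnitude lower in either HLU library than in either Ctrl library. At 1000 UMIs per barcode, 58.9, 61.03, 0 and 5.71% of these barcodes held an Mmp3 UMI and 44.9, 42.7, 42.5 and 65.7% an Mmp13 UMI. The cluster's median depth was similar in all libraries (13935, 12905, 10449.5 and 15064 UMIs). Its makeup was not: all 9 stromal markers were detected in each library but summed to 16019.8, 13671, 2406 and 1536 CPM, and the 10 osteoblast markers to 3688, 2167, 7885 and 303 CPM. Other kinds of cell in this cluster and lower Mmp3 in the same cells cannot be told apart here. Mmp2 (790.3, 872, 188 and 35.9 CPM) was lower in both HLU libraries of this cluster too, and Mmp19 (13.2, 9.396, 32.1 and 39.3 CPM) was higher.

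**Figure D5:**
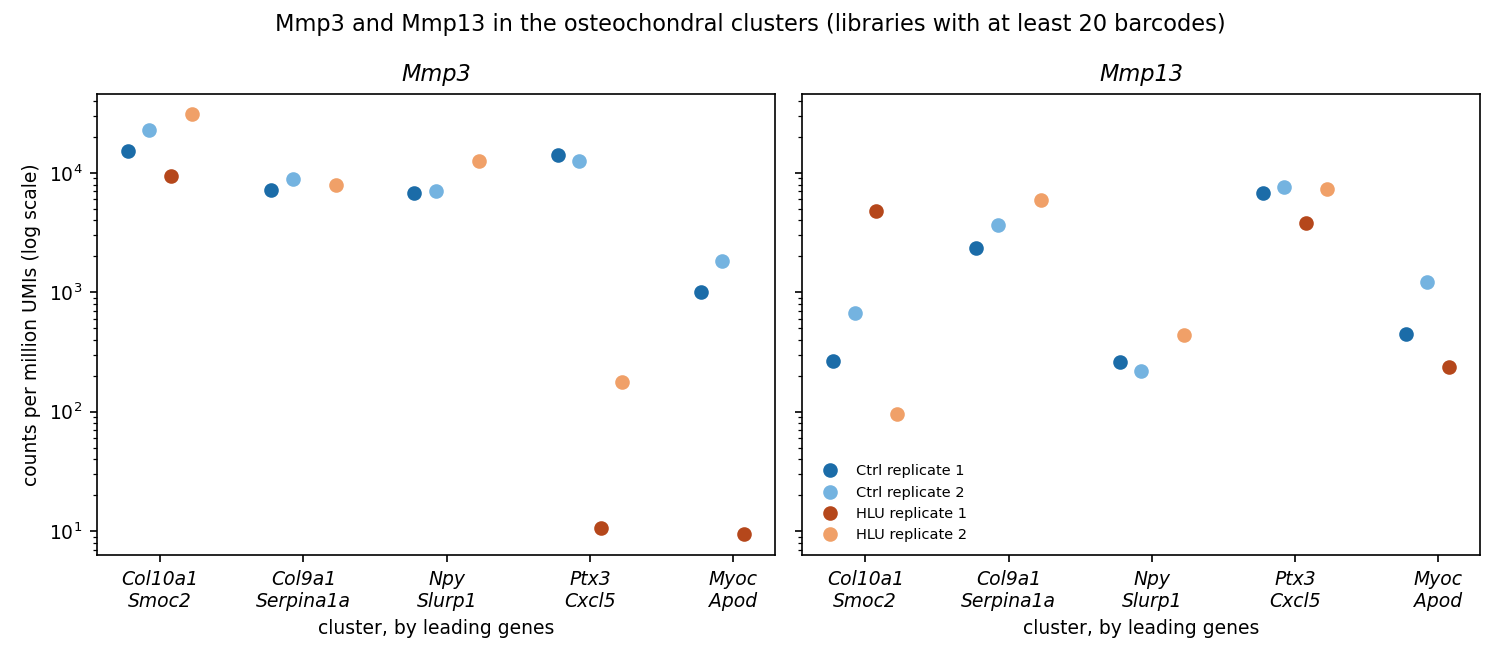
CPM of Mmp3 and Mmp13 on a log axis in 5 osteochondral clusters, named by their leading genes, with 1 point per library that had at least 20 barcodes. In the Ptx3 and Cxcl5 cluster the HLU libraries lay far below the Ctrl libraries for Mmp3 and within or near their range for Mmp13.

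The balance of enzymes to inhibitors, as the sum of Mmp UMIs over the sum of Timp UMIs, was 4.49, 4.98, 9.997 and 22.8 over all kept barcodes, 19.2, 17.3, 98.7 and 123 in monocytes, 6.15, 7.88, 13.1 and 59.9 in immature neutrophils and 4.61, 5.02, 4.303 and 11.3 in osteochondral cells. A 3′ library counts 1 end of each transcript, so these sums carry no length term, but they count transcripts and not protein. HLU replicate 2 was highest in each of these 4 groupings. In neutrophils and monocytes the sums include Mmp3, Mmp13, Timp1 and Timp3 UMIs, which were lower in both HLU libraries beside the chondrocyte marker sums given above, and their part in the ratios was not tested. Mmp8 and Mmp9 together made up 4.697, 5.99, 88.1 and 61.8% of all Mmp UMIs, so that the neutrophil enzymes were the smaller part in the Ctrl libraries and the larger part in the HLU libraries.

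Over 40 sums of 10 classes in 4 libraries, the genes most like each member were found by Pearson's r of log2(CPM + 1) among 6689 genes, as a description of sums that share libraries and depth. For Mmp8 these were Fpr1 (0.95), Fpr2 (0.92), Tarm1 (0.92), and for Mmp9 Trpm2 (0.93), Retnlg (0.92), Prok2 (0.91). Mmp3 was most like Cytl1 (0.97), Cilp (0.97), Comp (0.97), and Mmp13 most like Osmr (0.97), Vasn (0.96), Ddr2 (0.96). The genes nearest to Timp1 were Col6a1 (0.97), Col6a2 (0.97), Wif1 (0.96), to Timp3 Cavin1 (0.93), Fkbp9 (0.93), Npr2 (0.93) and to Timp2 Tnfaip6 (0.86), Bmpr1a (0.86), Rnf11 (0.83). For Mmp2 they were Serping1 (0.88), Serpinf1 (0.88), Adamts2 (0.86), for Mmp14 Myof (0.92), Rgl1 (0.92), Sh3pxd2b (0.91) and for Mmp19 Gstm1 (0.79), Lpl (0.78), Cyb5a (0.78). Between members, r was 0.93 for Mmp13 with Timp1, 0.90 for Mmp3 with Timp1, 0.75 for Mmp8 with Mmp9 and 0.70 for Mmp14 with Mmp19.

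Of 16 other Mmp and Timp genes in the matrices, 10 were tested over all kept barcodes, where 2 rose and 5 fell, against 23.2% of all genes called in either direction. Mmp25, a membrane-bound MMP of leukocytes (2.83, 3.37, 10.8 and 12.6 CPM, log2 fold change 2.00, edgeR adjusted p = 0.0128), and Mmp27 (0.729, 0.715, 2.38 and 2.41 CPM, 1.80, 0.0282) rose. Mmp10 (stromelysin 2), Mmp28, Timp4, Mmp12 (macrophage elastase) and Mmp16 fell, with log2 fold changes of -4.45, -3.66, -3.24, -2.94 and -2.66. Of these, Mmp10, Mmp12 and Mmp27 lie with Mmp3 and Mmp8 in the run on chromosome 9, the first pair of which fell and Mmp27 rose over all kept barcodes. Within classes, 0 of 9 tested passed in osteochondral cells by edgeR (2 at an unadjusted p under 0.05 and 1 by DESeq2), and 1 of 3 in mature neutrophils (Mmp12, -4.20, edgeR adjusted p = 0.0306), against 2.9 and 2.61% of all genes. Mmp12 stood at 69.1, 224, 67.2 and 44.9 CPM in monocytes and 81.3, 132, 62.8 and 6.19 CPM in osteochondral cells. Mmp25 was higher in immature neutrophils than in progenitors (4.24) and lower again in mature neutrophils (-0.96), unlike Mmp8 and Mmp9, while Mmp12 was higher in mature than in immature neutrophils (1.62). In mature neutrophils, however, Mmp12 stood at only 7.57, 13.5, 0.659 and 0.384 CPM. It lay below monocytes and osteochondral cells there and, like Mmp3, lower in both HLU libraries, and no expression by neutrophils was read from it. Mmp23 and Mmp11, also among the highest of this list in the classes, reached at most 12.1 and 10.5 CPM in osteochondral cells.

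Of 25 regulators and partners of MMPs, 24 were tested over all kept barcodes, and the 11 that passed were all lower in HLU (median log2 fold change -1.91), against 23.2% of all genes called in either direction and a median of 0.04. Of the 3568 genes called, 2636 were lower. Large falls were those of Thbs2 (-5.62), a thrombospondin that takes part in the clearance of Mmp2, Serpine2 (-4.95), a serine proteinase inhibitor, the matrix protein Sparc (-4.83) and the caveolin Cav1 (-3.70). Sparc was the highest of the list in osteochondral cells, at 9441, 10394, 5429 and 4297 CPM, followed by Lcn2, Serpine2, Bsg and Cd63. In osteochondral cells 1 of 24 passed, against 2.9% of all genes, the neutrophil elastase gene Elane (5.94, 16.8, 170.2 and 153 CPM, log2 fold change 3.48, edgeR adjusted p = 0.0459). Elane served here as a marker of neutrophil progenitors, where it stood at 4898, 5499, 3646 and 4933 CPM, against 67.8, 118, 46 and 103 CPM in immature neutrophils. The part of progenitor transcripts in its call was not tested. Without the cluster of low UMI totals 0 genes passed in osteochondral cells by edgeR (2769 at an unadjusted p under 0.05), so this call was lost as well. In immature neutrophils 3 of 22 fell (Plat, Sparc and Lrp1, log2 fold changes -7.53, -5.53 and -3.35), and in mature neutrophils 4 of 20 (among them Sparc, Serpine2 and Ctsk, -6.05, -4.79 and -3.45), beside the chondrocyte markers given above and against 1.81 and 2.61% of all genes. Of the tested genes, 0 of 19 passed in progenitors by edgeR (8 at an unadjusted p under 0.05 and 2 by DESeq2) and 0 of 17 in monocytes (7 at an unadjusted p under 0.05 and 2 by DESeq2), against 0.18 and 0.147% of all genes.

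Between the neutrophil stages, 8 of 20 regulators were higher and 4 lower in immature neutrophils than in progenitors, and 10 of 21 were higher and 5 lower in mature than in immature neutrophils, against 65.6 and 63.8% of all genes called in either direction, so the counts say little about the list. Reck, a membrane-bound MMP inhibitor, was higher in immature neutrophils than in progenitors (2.09) and lower again in mature neutrophils (-2.56). Lcn2, whose protein binds Mmp9, followed the same course (1.94 and -0.62), as did the urokinase receptor gene Plaur (1.75 and -1.24). Cd44, a surface partner of Mmp9, was higher at each step (1.70 and 1.60), and the elastase gene Elane was lower at each (-5.64 and -2.13), with Cd63 (-0.36 and -0.62). Furin, an activator of membrane-bound MMPs (1.26), was higher and Ctsg (-6.78) was lower at the earlier step. Serpine2 was lower there too (-0.44), but it stood at 3467, 3652, 650 and 1295 CPM in osteochondral cells. In mature neutrophils it was lower in HLU (-4.79), like Mmp3, and no expression by neutrophils was read from it. Thbs1 (1.91) and Itgav (1.45) were higher at the later step. So were Ctsk (1.98) and Sparc (1.47), but Sparc stood at 394, 338, 9.66 and 1.66 CPM and Ctsk at 12.98, 18.2, 2.196 and 0.6403 CPM in mature neutrophils, far below osteochondral cells and lower in both HLU libraries, like Mmp3, and no expression by neutrophils was read from them.

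In mature neutrophils the highest regulators were Lcn2 (4189, 5665, 3668 and 20561 CPM), Thbs1 (8356, 7340.2, 5064 and 950.1 CPM), Cd44, Bsg and Cd63. HLU replicate 2 stood apart from the other 3 libraries there, high for Lcn2 and low for Thbs1, as it was low for Timp2. Bsg, the gene of the MMP inducer basigin, stood at 994, 983, 558 and 84.6 CPM in mature neutrophils, again lowest in HLU replicate 2. The same 5 genes were the highest of the list in monocytes, led by Thbs1 (6714, 7040.2, 4805 and 5029 CPM), with Lcn2 at 917, 1198, 1107 and 4017 CPM.

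Of 27 ADAM and ADAMTS proteinases, the family that Timp3 also inhibits, 25 were tested over all kept barcodes, and the 14 that passed were all lower (median log2 fold change -2.43), against the same share and median of all genes. The largest falls were those of Adamts18 (-7.16), Adamts15 (-5.30), Adamts16 (-4.99), Adamts8 (-4.31) and Adamts2 (-4.15), the last a procollagen proteinase. Adamts18 stood at only 1.87, 0.97, 0 and 0.0114 CPM, and Adamts15, Adamts16 and Adamts8 were lower still in the Ctrl libraries. Adamts2 stood at 18.8, 15.3, 1.21 and 0.662 CPM. As for the members, such sums cannot tell fewer cells of a type from less RNA per cell. In immature neutrophils 2 of 9 fell (Adamts1, -6.11, and Adamts5, -3.83), against 1.81% of all genes called. In mature neutrophils 1 of 9 fell (Adamts5, -4.12), against 2.61%. Adamts5, an aggrecanase, was the highest of the list in osteochondral cells (423, 293, 145 and 752 CPM), followed by Adamts1 (78.5, 73.9, 94.8 and 253 CPM), Adam17, Adam8 and Adam9. In osteochondral cells 0 of 20 passed by edgeR (5 at an unadjusted p under 0.05 and 0 by DESeq2), in progenitors 0 of 7 (1 at an unadjusted p under 0.05 and 1 by DESeq2) and in monocytes 0 of 7 (1 at an unadjusted p under 0.05 and 0 by DESeq2). Of all genes tested, 2.9, 0.18 and 0.147% were called by edgeR in these classes, in the same order, so these counts say little about the list.

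Along the neutrophil stages Adam19 (5.63 and 1.58 on the log2 scale) and Adam8 (3.22 and 1.65) were higher in CPM at each step, as Mmp8 and Mmp9 were. Adam15 (0.80) and Adam10 (0.61) were higher in immature neutrophils than in progenitors. Adam17, the sheddase of tumour necrosis factor (2.11), was higher and Adamts10 (-0.74) lower in mature than in immature neutrophils. Adamts5 (1.53) and Adamts1 (1.36) were higher too, but at 20.01, 10.1, 0.659 and 0.768 and at 6.49, 4.405, 0.659 and 0.128 CPM they lay far below osteochondral cells and, like Mmp3, lower in both HLU libraries, and no expression by neutrophils was read from them. Adam8 was the highest of the list in mature neutrophils, at 1267, 1029, 998 and 223 CPM, and in monocytes, at 334, 428, 282 and 165 CPM, and HLU replicate 2 lay below the other libraries in both, as for Timp2. Adam17, Adam10 and Adam15 came next in monocytes, with Adam9, and Adam17, Adam10 and Adam19 in mature neutrophils.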

How the data were processed

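Single-cell libraries of bone from 2 Ctrl and 2 HLU mice were read as the raw UMI counts per gene and barcode that the authors deposited, made per the submitters' processing notes with Cell Ranger 6.0.0 on mm10. The notes also name Seurat 4.1.0. The count tables carry no normalization, each column belongs to 1 labelled sample, and 0 columns of other samples were present.

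Barcodes with 1000 to 40000 UMIs and at most 10% mitochondrial UMIs were kept. Doublets were called with Scrublet (scanpy 1.11.5) at an assumed rate of 0.8% per 1000 barcodes, and the 2098 called were left out of the classes but kept in the sums over all kept barcodes. The methods also drop barcodes with over 0.2% of UMIs from red-cell genes, a step used here as an alternative. The libraries were integrated by canonical correlation (Seurat 5.3.0, R 4.3.3, 2000 variable genes, 50 principal components, resolution 1). Clusters were named from marker lists without Mmp or Timp genes, needing at least 3 markers past a log2 fold of 1 in at least 10% of barcodes, a mean log2 fold of 1.5 over the top 5 markers, and no more markers of another type than of their own among the top 10 genes. These thresholds were set after the clusters were seen.

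UMIs were summed per library and class, with at least 20 barcodes per library, and tested across libraries with edgeR 4.0.16 (quasi-likelihood test, TMM, low genes removed by filterByExpr, Benjamini-Hochberg adjustment over all genes tested, threshold 0.05). HLU was compared with Ctrl without a block, and neutrophil stages were compared with the library as a block. Alternatives were DESeq2 1.42.0, its size factors, no filter, each library left out, the replicate block, doublets, the haemoglobin limit and other resolutions. The procedure was tested on simulated counts. Shares of barcodes were also taken after thinning to 1000 UMIs. Depth was 45347595 to 87604282 UMIs per library, and counting error alone limits values from few UMIs. Each group has 2 mice, so p-values rest on the spread between 2 libraries.

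All 10 members are named in each comparison. From 3 further lists (other MMP and TIMP genes, regulators and partners, ADAM and ADAMTS proteinases) the named genes are up to 5 called per direction by fold change and the 5 highest by CPM in 3 classes, except for 1 gene that is not reported here. Members, lists and markers were chosen with earlier results of these data known. GENCODE M21 (mm10) gave the gene positions, and RefSeq on GRCm38.p6 the promoters.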

Additional observations from a re-analysis of the deposited data

Results flagged for a closer look

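Mmp2 in neutrophil progenitors stood out because its direction differed between cell classes. It was higher in both HLU libraries than in either Ctrl library (9.42, 5.57, 11.6 and 11.1 CPM from 24, 22, 73 and 198 UMIs, log2 fold change 0.39, SE 0.42, edgeR adjusted p = 0.8304), whereas both HLU libraries were lower in immature neutrophils, mature neutrophils and osteochondral cells (log2 fold changes -2.46, -3.36 and -1.93). Mmp13 in osteochondral cells was higher in both HLU libraries (1305, 2162, 2509.6 and 3129 CPM, log2 fold change 0.36, SE 0.38, edgeR adjusted p = 0.613), whereas both were lower in progenitors, immature neutrophils, mature neutrophils and monocytes (-4.12, -3.85, -3.95 and -1.66). In both cases the difference between classes was not tested. The stromal cluster led by Ptx3 and Cxcl5 made up 236, 213, 40 and 35 of the 3310, 2626, 444 and 239 osteochondral barcodes. Its Mmp13 overlapped between the groups (6824, 7625, 3821 and 7274 CPM). In the Col10a1 cluster Mmp13 was high in HLU replicate 1 alone, from 26 barcodes, and in the Col9a1 cluster HLU replicate 2 was above both Ctrl libraries. The part of this makeup in the osteochondral level of Mmp13 was not tested. Mmp13 in mature neutrophils lay near the B cells in UMIs per barcode, as given above. So did Mmp2, at 0.0159, 0.0149, 0.0021 and 0.0015 in mature neutrophils against 0.0069, 0.021, 0.0036 and 0.0023 in B cells. The part of free RNA in these lower values was not tested.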

How the results depend on the processing

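Of 882 values of single genes under an alternative, 749 kept their direction and their side of the threshold, 84 passed under the alternative alone, 28 no longer passed and 21 changed sign. Of the 10 genes, the number called in progenitors (2) became 5 with DESeq2, 6 with no filter and 1 at resolution 0.5. In monocytes (1) it became 4, 7 and 0 (5 at an unadjusted p under 0.05) under the same alternatives and 2 with doublets kept, and in osteochondral cells (2) 7 with DESeq2, 8 with no filter, 4 with doublets kept and 0 (8 at an unadjusted p under 0.05) without the cluster of low UMI totals. Between mature and immature neutrophils (8) it became 2 without the library as a block. Leaving out 1 library at a time, in the order Ctrl replicates 1 and 2 and HLU replicates 1 and 2, gave 5, 5, 9 and 9 genes over all kept barcodes, 4, 3, 6 and 6 in progenitors, 4, 4, 6 and 4 in immature and 4, 4, 7 and 6 in mature neutrophils, 1, 0, 7 and 3 in monocytes, 0, 1, 6 and 7 in osteochondral cells, 6, 5, 5 and 5 from progenitors to immature neutrophils and 7, 7, 7 and 8 from immature to mature neutrophils, where the 0s held 6 at an unadjusted p under 0.05 in monocytes and 6 at an unadjusted p under 0.05 in osteochondral cells, the lone sample of a group being assumed to vary like the other group. Without the Retnlg cluster, an alternative chosen after seeing the data like the one without the cluster of low UMI totals, the counts were 4, 5 and 7 in the comparisons that use immature neutrophils. The replicate numbers were not shown to pair the libraries, since deviations of same-numbered libraries correlated at -0.137 to 0.137 with 2 pairs. With the replicate block the number of the 10 genes called became 5 in progenitors, 2 in monocytes and 0 (7 at an unadjusted p under 0.05) in osteochondral cells, and the number of all genes called went from 18 to 131, 185 to 289, 14 to 37 and 386 to 0 (2178 at an unadjusted p under 0.05) in progenitors, immature neutrophils, monocytes and osteochondral cells. In osteochondral cells, where the correlation was the lowest, the crossed pairing, added after seeing the data, gave 5 of the 10 genes and 1140 genes in all. The number of all genes called also moved by over 1.5 times under other settings, and leaving out 1 library, in the same order, gave 848, 1136, 7726 and 6043 over all kept barcodes (3568 in the full comparison), 40, 35, 3654 and 195 in progenitors (18), 134, 90, 2765 and 202 in immature (185) and 102, 106, 3699 and 615 in mature neutrophils (207), 13, 0, 2656 and 72 in monocytes (14, with 197 at an unadjusted p under 0.05 where the count was 0) and 3, 216, 1986 and 1577 in osteochondral cells (386). With no filter it was 372, 729, 863, 381 and 1842 in these 5 classes. With DESeq2 it was 124 in progenitors, 105 in monocytes and 1347 in osteochondral cells, with doublets kept 50, 322, 36 and 811 in progenitors, immature neutrophils, monocytes and osteochondral cells, 8 in monocytes at resolution 0.5, and without the cluster of low UMI totals 0 (2769 at an unadjusted p under 0.05) in osteochondral cells by edgeR. Without the library as a block, 3960 genes were called between mature and immature neutrophils (5953 with it). Among the log2 fold changes of HLU against Ctrl, those that changed sign, with the range over the 4 libraries left out in turn, were Mmp14 in all kept barcodes (-1.37 without HLU replicate 2 and -1.37 to 2.77 over the 4), Mmp9 in progenitors (-0.14 without HLU replicate 1 and -0.14 to 2.20 over the 4), Mmp9 in immature neutrophils (-0.32 without HLU replicate 1 and -0.32 to 0.54 over the 4), Mmp8 in monocytes (-0.088 without HLU replicate 1 and -0.088 to 0.61 over the 4), Mmp9 in monocytes (3.01 without Ctrl replicate 2 and -2.89 to 3.01 over the 4), Mmp14 in monocytes (-0.049 without HLU replicate 2 and -0.049 to 3.39 over the 4), Mmp19 in monocytes (0.17 without HLU replicate 1 and -0.52 to 0.17 over the 4) and Mmp14 in osteochondral cells (-0.068 without HLU replicate 2 and -0.068 to 2.64 over the 4). Between immature neutrophils and progenitors, Mmp3 became 0.018 with DESeq2, 0.061 with no filter, 0.21 without HLU replicate 2, 0.11 without the library as a block, 0.17 with doublets kept, 0.20 at resolution 0.5 and -0.23 to 0.21 over the 4, Mmp13 became -0.092 without the Retnlg cluster, Timp1 became -0.11 at resolution 2 and -0.13 without the Retnlg cluster, and Timp3 became 0.14 with DESeq2, 0.078 with no filter, 0.17 with doublets kept and 0.099 at resolution 0.5. The cause of these changes was not tested. Values from few UMIs, such as Mmp14 and Mmp19 in neutrophils, are limited by depth.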

Other observations

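Other cell classes held some of the 10 genes at levels of their own. Timp3 stood at 62.7, 173, 121 and 406 CPM in the cluster called basophils and mast cells (43, 47, 79 and 110 barcodes), where HLU replicate 2 was highest. Pf4 and Itga2b, genes of megakaryocytes, were among the top 10 genes of this cluster, and at resolution 2 it gave way to a cluster of 156 barcodes of basophils and mast cells and one of 150 barcodes of megakaryocytes, so that Timp3 cannot be assigned to either here. It held 11.7 and 23.1% of the Timp3 UMIs of the HLU libraries. Mural cells, the contractile cells of vessel walls, held Timp3 at 900.2 and 211 CPM in the Ctrl libraries.

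Among the clusters left unnamed, the one led by Ldhc and Tnfaip6 stood at 655, 844, 557 and 67.7 CPM for Timp2 and 506, 564, 759 and 1591 CPM for Mmp8, so that HLU replicate 2 was lowest for the inhibitor and highest for the collagenase. The unnamed cluster led by Clec4n and Pdcd1lg2, nearest to mature neutrophils by its markers, differed in this. It stood at 66.6, 87.3, 50.97 and 66.3 CPM for Timp2, where HLU replicate 1 and not HLU replicate 2 was lowest. The unnamed cluster led by Clic5 and Col22a1 stood at 946 and 576 CPM for Timp2 in the Ctrl libraries, and the one led by Bcl2a1d and Srm at 347, 472, 6.85 and 3.59 CPM, where the Ctrl libraries were far above the HLU libraries. In the Bcl2a1d cluster Mmp3 (7775, 9137, 1.71 and 14.4 CPM) and Timp3 (1156, 1613, 0 and 0 CPM) were likewise high in the Ctrl libraries alone. Other kinds of cell in it and lower Timp2 in the same cells cannot be told apart. These clusters were picked out after their values were seen, and no test was run on them.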
